A study of Rattus norvegicus with 4 samples.

Results

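The 4 miRNAs described here are rno-miR-126a-3p, rno-miR-126a-5p, rno-miR-191a-5p and rno-miR-22-3p. They were picked by name from the 719 rat miRNAs on the array, as both arms of the miR-126a precursor and 2 other miRNAs that are abundant in platelets. All 4 were present on the array under these names. MicroRNA from serum exosomes, the small membrane vesicles that cells release into blood, was labelled with Cy3 and hybridised to 4 single-colour rat miRNA arrays from Agilent. The study's title concerns exosomal miR-92b in hepatocellular carcinoma (HCC).

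The 4 groups held 1 array each. The naive sample was serum without an injection (day 0). The light sample was serum from day 35, and the moderate and severe samples were both from day 49 after the injection. All serum came from male rats, and exosome RNA was extracted with an SBI kit. The treatment text speaks of an HCC cell line given to the rats, whereas the design text speaks of HCC exosomes given as 1 dose to "baffolo rats". The cell line, the rats' age and the meaning of light, moderate and severe are not given in the sources used here. The design text mentions 4 independent experiments at each time with different rats, but whether RNA was pooled on an array is not stated. No difference between groups therefore has a replicate check, and no p-value is given. The errors below are standard errors (SE) over the spots of 1 array and hold spot noise only. In exosome RNA, fewer vesicles from a source and less miRNA in each vesicle cannot be told apart.

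MicroRNAs are short RNAs that guide Argonaute proteins to messenger RNAs, mainly by pairing of the seed, the bases near the 5′ end. The miR-126 precursor lies in an intron of Egfl7, a gene of endothelial cells, and its 3p arm is known for repressing Spred1 and Pik3r2, inhibitors of VEGF signalling, in mouse, fish and human endothelium. The 5p arm is known for repressing Dlk1 in mouse endothelium. Platelets, which bud from megakaryocytes and shed vesicles into plasma, carry miR-126, miR-191, miR-22 and miR-223 among many others. miR-191 is processed from a transcript that it shares with miR-425 and is abundant in many blood cells. miR-22 is found in many tissues, among them heart and skeletal muscle, and represses Tet2 in mouse and human cells.

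The mature sequences are shown because they define what the probes detect and which arms belong together. They are from RefSeq (build GRCr8), 5′ to 3′, with the seed (bases 2 to 8) in capitals.
rno-miR-126a-3p: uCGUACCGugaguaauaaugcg
rno-miR-126a-5p: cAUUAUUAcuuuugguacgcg
rno-miR-191a-5p: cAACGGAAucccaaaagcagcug
rno-miR-22-3p: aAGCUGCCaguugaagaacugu
The 4 seeds differ from each other, and each was held by 1 of the 724 mature rat miRNAs in the sequence table. The miR-126a arms lie on the plus strand within Egfl7, the 3p arm at chr3:29813219-29813240 and the 5p arm at chr3:29813182-29813202. rno-miR-191a-5p lies at chr8:118142641-118142663 on the plus strand, within Dalrd3. rno-miR-22-3p lies at chr10:60805387-60805408 on the plus strand, and no gene other than its own miRNA gene spans it in the table. The table lists another miRNA, rno-miR-126b, on the opposite strand of the miR-126a precursor, overlapping the 5p arm by 17 bases. The array's own annotation used build rn4, and no coordinates were converted.

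The arrays differed in brightness. By the scanner software's call, 140 miRNAs were present in the naive sample, 122 in the light, 176 in the moderate and 129 in the severe, and 111 were present in all 4. The scale, the 75th percentile of those 111, was 666 intensity units on the naive array, 356 on the light, 954 on the moderate and 415 on the severe array. The labelling spike-ins relative to the naive array were at 1.004 on the light, 0.891 on the moderate and 0.620 on the severe array. A level below is the background-subtracted signal summed over a miRNA's probes, in intensity units. A difference is the log2 ratio of 2 such levels after each was divided by its array's scale. A miRNA counted as measured where it was detected and reached the array's floor (13.1 to 16.0 units), which is the dimmest probe that had a share of 0.5 or more of its spots clear of background. For a miRNA measured on just 1 array of a pair, a bound is given instead. It is taken against the higher of the other array's floor and the miRNA's own signal there. Where it came to less than 1-fold, no fold is given.

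miR-126a-3p was detected and measured on all 4 arrays. Its level was 71.9 ± 1.15 units (SE over spots) on the naive array, 24.7 ± 0.677 on the light, 97.1 ± 1.67 on the moderate and 22.7 ± 0.917 on the severe array. Before scaling, the naive and moderate arrays were thus high and the light and severe arrays low, and the scale too was larger on the naive and moderate arrays. The second of its 2 probes had 10 spots on every array, all of them well above background. These spots ran from 54.7 to 62.5 (median 58.5) on the naive array and from 73.1 to 88.2 (median 81.0) on the moderate array. They ran from 18.1 to 23.9 (median 21.8) on the light array and from 16.8 to 24.1 (median 20.3) on the severe array. The spots of the light and severe arrays overlapped each other, and neither overlapped those of the naive or moderate array. The first probe was close to background. It averaged 13.4 units on the naive, 2.95 on the light, 16.1 on the moderate and 2.33 on the severe array, with 2, 0, 9 and 0 spots well above background in that order.

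**Figure D1:**
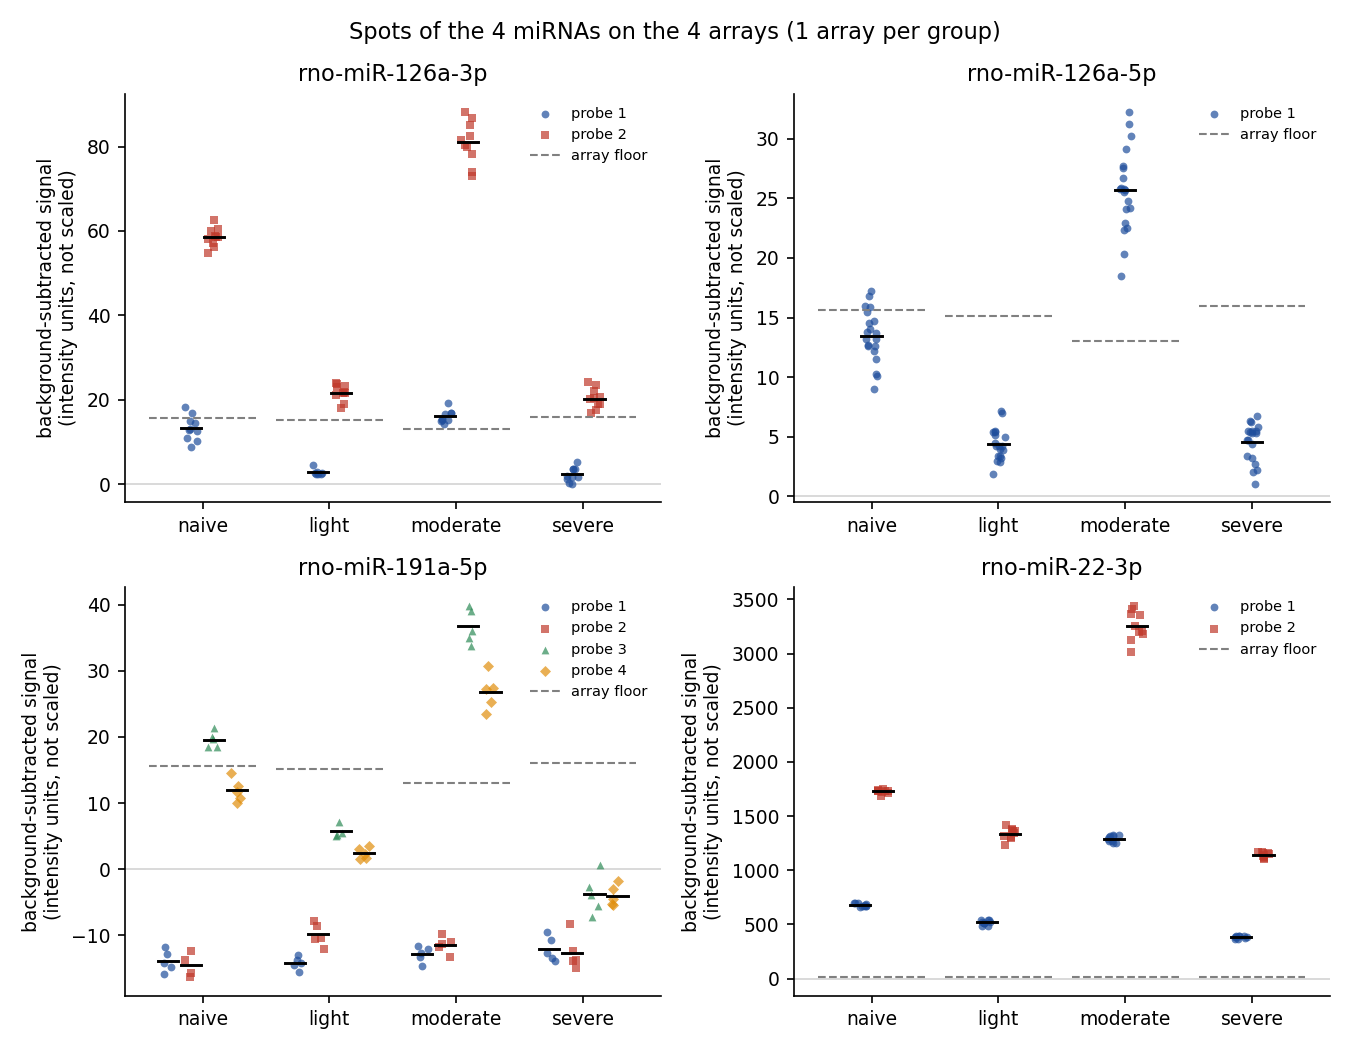
Background-subtracted signal of every spot (vertical axis, intensity units, not scaled between arrays) of the 4 miRNAs on each array, from naive at the left to severe at the right, coloured by probe. Black bars are probe means and dashed lines each array's floor. All miR-22-3p spots lie far above the floor, the second miR-126a-3p probe lies above it on all 4 arrays, and the signals of miR-126a-5p and miR-191a-5p lie below it on the light and severe arrays.

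After scaling, miR-126a-3p stood at 10.8% of the 75th percentile on the naive array, 10.2% on the moderate, 6.93% on the light and 5.46% on the severe array. The moderate array differed from the naive by −0.08 ± 0.03 on the log2 scale, under 3 times its spot error, and its second probe alone by −0.05 ± 0.03. The light array was lower than the naive by a log2 difference of −0.64 ± 0.05, or 1.56-fold. The severe array was lower than the naive by −0.98 ± 0.06, or 1.98-fold, just short of the 2-fold used here to call a difference. Against the moderate array, the severe array was lower by −0.90 ± 0.06. The moderate array was higher than the light by 0.55 ± 0.05. The severe array was lower than the light by −0.35 ± 0.07, while their unscaled signals differed by −0.12.

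The scale set the size of these differences. Without it, miR-126a-3p was lower by −1.54 on the light and by −1.67 on the severe array than on the naive array, and higher by 0.43 on the moderate array. With the spike-ins as the scale, the 3 differences were −1.55, −0.98 and 0.60. The direction for the light and severe arrays was lower than naive in 13 of the 14 other settings, and it was not in the normexp background model with an offset of 50 units, which gave 0.27 and 0.03. The levels on those 2 arrays are below that offset. Probes of the 537 miRNAs detected on no array had a median of −7.03 units on the naive array and of −5.43, −5.78 and −5.58 on the light, moderate and severe arrays. When each array was recentred on that median, the light and severe differences shrank to −0.37 and −0.66.

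Read against all miRNAs, miR-126a-3p was the 6th lowest of the 117 measured on both the light and naive arrays, whose median difference was 0.27. It was 36th from the lowest of 126 on the moderate array (median 0.22) and 23rd of 109 on the severe array (median −0.11). On the severe against the light array it lay in the middle, 56th of 104 (median −0.47). These ranks and medians use the 75th percentile. Unscaled, the medians for the light, moderate and severe arrays against the naive were −0.63, 0.74 and −0.79.

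miR-22-3p was measured on all 4 arrays, with every spot well above background. Its level was 2407 ± 7.25 units on the naive array, 1855 ± 17.7 on the light, 4548 ± 44.4 on the moderate and 1521 ± 8.02 on the severe array. Unscaled, the moderate array was thus the highest and the severe array the lowest. Relative to the scale the order was another: light at 521% of the 75th percentile, moderate at 477%, severe at 366% and naive at 361%. miR-22-3p differed from the naive array by 0.53 ± 0.01 on the light, 0.40 ± 0.01 on the moderate and 0.02 ± 0.01 on the severe array. On the severe array its 2 probes had opposite signs, −0.15 and 0.08, so severe and naive, next to each other in the order, were not separated beyond the spread between probes. On the light array the probes gave 0.51 and 0.54, and on the moderate array 0.41 and 0.40. The moderate array was lower than the light by −0.13 ± 0.02, but this direction depended on the scale. It was below 0 in 7 and above 0 in 6 of the 14 other settings, and 1.29 unscaled. The severe array was lower than the moderate by −0.38 ± 0.02 and lower than the light by −0.51 ± 0.02.

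The direction of miR-22-3p on the light array depended on the scale. It was −0.38 without scaling, −0.38 with the spike-ins and −0.21 after quantile normalization, and above 0 in the other 11 settings. On the moderate array it was above 0 in 13 of 14 settings, the exception being quantile normalization at −0.21. Its rank was 90th from the lowest of 117 on the light, 81st of 126 on the moderate and 58th of 109 on the severe array.

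**Figure D2:**
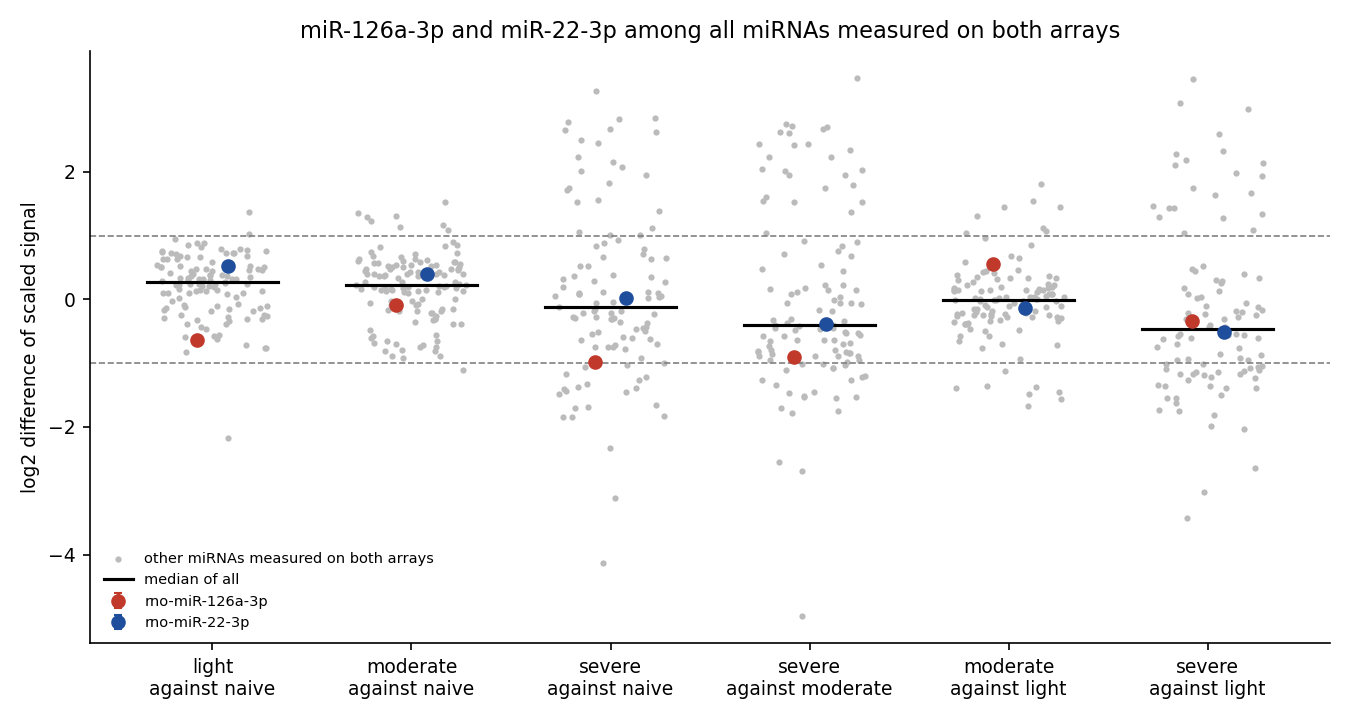
Log2 difference of the scaled signal (vertical axis) for miR-126a-3p (red), miR-22-3p (blue) and the other miRNAs measured on both arrays (grey) in the 6 comparisons. Black bars are the medians of all, dashed lines mark 2-fold, and spot errors are smaller than the symbols. Neither miRNA passes 2-fold in any comparison, and miR-126a-3p lies below the median in 4 comparisons and above it in moderate against light and severe against light.

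With the 75th percentile scale, 0 of the 4 miRNAs were at least 2-fold apart, bounds included, in the 3 comparisons that involve the moderate array. There miR-126a-5p and miR-191a-5p were measured on the moderate array alone. Relative to the scale, their levels lay less than 2-fold above the floors of the other arrays, so neither could be called. In the other comparisons miR-126a-5p and miR-191a-5p were measured on neither array, and 0 of the 2 remaining miRNAs were at least 2-fold apart. Among all miRNAs measured on at least 1 of the 2 arrays, the share at least 2-fold apart was 2.34% for light against naive, 6.63% for moderate against naive and 42.3% for severe against naive. It was 35.5% for severe against moderate, 10.2% for moderate against light and 51.9% for severe against light. A miRNA whose bound fell short of 2-fold counts in these shares as not apart. The count of the 4 miRNAs depended on the scale. Against the naive array, without scaling, it was 1 on each of the light, moderate and severe arrays: miR-126a-3p, lower, on the light and severe arrays, and miR-191a-5p on the moderate, by a bound that its probe 3 did not reach (0.91 unscaled).

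The scale of an array cancels in the ratio of 2 miRNAs on it, so the change of miR-22-3p over miR-126a-3p does not depend on a scaling factor. This ratio was higher than on the naive array by a log2 of 1.17 ± 0.05 (2.25-fold) on the light array, 0.48 ± 0.04 (1.399-fold) on the moderate and 1.004 ± 0.063 (2.01-fold) on the severe array. Each value was larger than its spot error. With the second miR-126a-3p probe and each miR-22-3p probe in turn, it was 1.04 and 1.06 on the light, 0.46 and 0.45 on the moderate and 0.69 and 0.93 on the severe array. It was lower on the moderate than on the light array by −0.68 ± 0.05, higher on the severe than on the moderate array by 0.52 ± 0.07, and differed between severe and light by −0.16 ± 0.07. The ratio rests on the dim miR-126a-3p signal. With the recentred background it was 0.90 on the light and 0.69 on the severe array, and with normexp it was 0.064 and, turned in sign, −0.18. Quantile normalization, which is no single factor per array, gave 0.49 on the light, 0.14 on the moderate and 0.47 on the severe array, so the ratio no longer reached 2-fold.

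**Figure D3:**
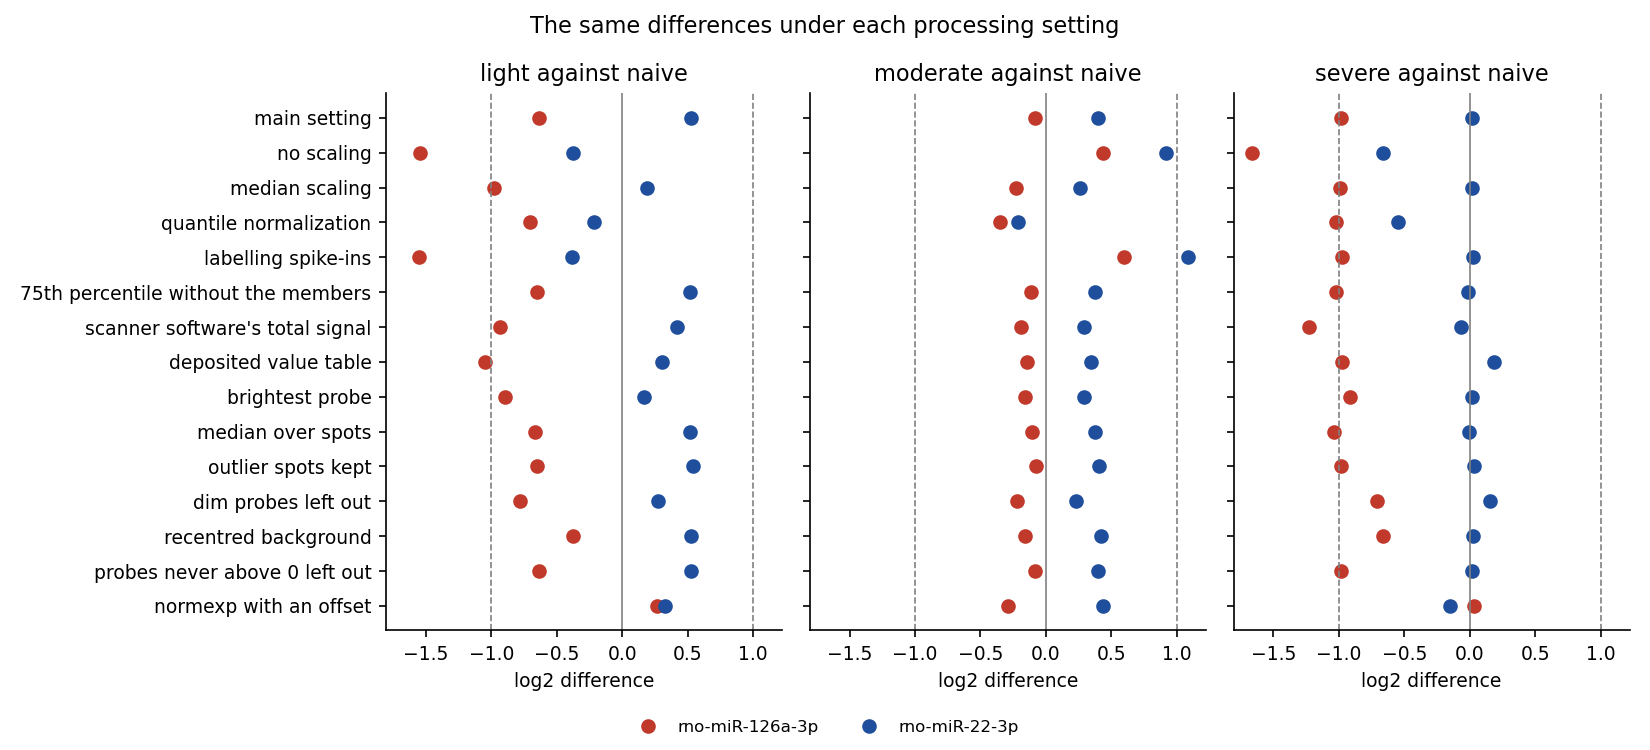
Log2 difference from the naive array (horizontal axis) of miR-126a-3p (red) and miR-22-3p (blue) for the light, moderate and severe arrays, 1 line per processing setting. Solid lines mark 0 and dashed lines 2-fold. miR-126a-3p lies below 0 on the light and severe arrays in all settings but normexp, and miR-22-3p on the light array falls below 0 without scaling, with quantile normalization and with spike-ins.

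miR-126a-5p, the other arm of the precursor, was detected on the naive and moderate arrays only. Its 1 probe averaged 13.5 ± 0.495 units on the naive array, 4.39 ± 0.311 on the light, 25.7 ± 0.777 on the moderate and 4.55 ± 0.370 on the severe array. Well above background were 5 of 20 spots on the naive array, 0 of 19 on the light, 20 of 20 on the moderate and 0 of 19 on the severe array. The naive and moderate arrays were thus the high ones, as for the unscaled 3p arm, and their spots did not overlap. Since the naive level lay under that array's floor of 15.6 units, only the moderate array measured it. By the rule for bounds it was at least 1.15-fold higher there than on the naive array, a log2 of 0.20. Over 12 other settings this value ran from 0 to 0.88 and was above 0 in 9, so the limit did not hold in every setting. Against the light and severe arrays the bound came to less than 1-fold, so no fold is given. At its naive level relative to the scale it would have read 7.21 units on the light and 8.40 on the severe array, and at its moderate level 9.58 and 11.2. All of these lie under the floors of 15.1 and 16.0 units. The measured 4.39 and 4.55 units were lower still. The floor is not a limit of detection, since the naive array's 13.5 units were called detected under a floor of 15.6.

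miR-191a-5p was likewise detected on the naive and moderate arrays only, and its 4 probes did not give the same picture. The sum over probes was 3.06 ± 1.499 units on the naive array, −15.9 ± 1.08 on the light, 39.2 ± 1.85 on the moderate and −32.4 ± 2.09 on the severe array. The first probe lay between −14.2 and −12.0 units and the second between −14.5 and −9.87, below 0 on every array. The third probe averaged 19.6 units on the naive, 5.73 on the light, 36.7 on the moderate and −3.76 on the severe array. The fourth probe averaged 11.9, 2.41, 26.8 and −3.98 units in the same order. Both were highest on the moderate array and lowest on the severe. The sum passed the floor on the moderate array alone. The third probe, with all 5 of its spots well above background on the naive and moderate arrays, was higher on the moderate array by 0.39 ± 0.06. The sum, which includes the probes below 0, gave 0.81 by the rule for bounds, more than this probe, and so is not used as a lower limit. No fold is given against the light or severe array. At its moderate level relative to the scale, the third probe would have read 13.7 units on the light array, under the floor of 15.1, and 16.0 on the severe array, about at the floor. The difference of the summed level between the moderate and naive arrays ran from −0.30 to 1.49 over 12 other settings.

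Other miRNAs of the same precursors, and others that lie nearby or have a like name, were looked up after the values of the 4 were known. miR-191a-3p was measured on all arrays, at 30.6 units (naive), 26.8 (light), 78.2 (moderate) and 23.1 (severe). Its differences from naive were 0.71 ± 0.18, 0.84 ± 0.12 and 0.28 ± 0.19. The 3p arm of miR-191a was thus measured on the arrays where the 5p arm was not, though only 2 to 10 of its 20 spots were well above background. miR-425-5p, which shares the transcript of miR-191, was at 213, 95.6, 262 and 49.3 units, and differed from naive by −0.25 ± 0.02, −0.22 ± 0.02 and, on the severe array, −1.43 ± 0.04. miR-22-5p was detected on the moderate array alone, at 12.8 units, just under the floor of 13.1. miR-126b, miR-191b and miR-425-3p were detected on 0 of 4 arrays.

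The profile over the 4 arrays, as scaled log2 values centred on their mean, was compared by Euclidean distance with that of the 103 other miRNAs measured on all arrays. For miR-126a-3p the closest were miR-30c-5p (distance 0.156), miR-128-3p (0.361) and let-7b-5p (0.387), against a median distance of 1.04. miR-30c-5p was at 157 units (naive), 49.6 (light), 212 (moderate) and 43.6 (severe). Its differences from naive were −0.76, −0.08 and −1.16, set beside −0.64, −0.08 and −0.98 for miR-126a-3p. For miR-22-3p the closest were miR-29b-3p (0.145), miR-101a-3p (0.153) and miR-106b-5p (0.170), against a median of 0.812. miR-29b-3p differed from naive by 0.73, 0.51 and 0.11. With 4 points per profile, such likeness is a description only.

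A list of 16 miRNAs known from platelets, the 4 included, served to place them. Shares of a list, here and below, are over its miRNAs measured on both arrays. The shares of all miRNAs set beside them also include those measured on 1 array alone, so the 2 are not strictly alike. On the light array 14 of the 16 were measured along with the naive array. Of these, 0 were at least 2-fold apart, against 2.34% of all miRNAs. The median difference was 0.29, against 0.27 for all 117 miRNAs. On the moderate array 0 of 14 were at least 2-fold apart, against 6.63% of all miRNAs, with a median of 0.32 against 0.22. With 14 miRNAs, counts of 0 cannot be told apart from shares this small. On the severe array 1 of 14 was higher and 3 were lower, with a median of −0.23 against −0.11. This share is below the 42.3% of all miRNAs that were at least 2-fold apart there. The higher one was miR-21-5p, a miRNA of many cell types, at 1969 units on the naive and 2551 on the severe array (1.06 ± 0.02, and 0.37 unscaled). The lower ones were miR-103-3p at 167 and 28.9 units (−1.85 ± 0.08), miR-30b-5p at 358 and 79.9 (−1.48 ± 0.03) and miR-26a-5p at 917 and 215 (−1.41 ± 0.02). miR-223-3p, abundant in both platelets and granulocytes, was at 6534, 4880, 14519 and 2161 units, and differed from naive by 0.48, 0.63 and −0.91. On the severe against the moderate array 4 of 14 were lower, miR-30b-5p (−1.75), miR-103-3p (−1.70), miR-223-3p (−1.55) and miR-26a-5p (−1.26), with a median of −0.50 against −0.41 and a share of 35.5% among all miRNAs. The platelet miRNAs did not move as 1 block: on the severe array they ran from −1.85 to 1.06 around miR-22-3p at 0.02 and miR-126a-3p at −0.98.

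A list of 15 endothelial miRNAs also held both miR-126a arms, and shared miR-23a-3p, miR-24-3p and miR-27a-3p with the platelet list. On the light array 0 of the 11 measured were at least 2-fold apart from naive, against 2.34% of all miRNAs. The median was 0.24 against 0.27 for all. On the moderate array 2 of 12 were higher, miR-10b-5p at 32.0 and 107 units (1.23 ± 0.06) and miR-10a-5p at 53.2 and 167 (1.13 ± 0.03). This share was above the 6.63% of all miRNAs, and the median was 0.51 against 0.22 for all. On the severe array 3 of the 10 measured on both arrays were higher and 0 lower. Their median was 0.68 against −0.11 for all, and this share too was below 42.3%. The 3 higher ones were miR-10a-5p, at 210 units (2.66 ± 0.02), miR-99a-5p, at 53.7 on the naive and 190 on the severe array (2.51 ± 0.03), and miR-130a-3p, at 1724 and 2155 (1.004 ± 0.021, and 0.32 unscaled). Without scaling 2 of the listed miRNAs were higher and 3 lower. miR-10a and miR-10b lie in Hox clusters, and miR-99a is a member of the miR-99/100 family. Of the listed miRNAs measured on both arrays, miR-126a-3p had the lowest difference between severe and naive. miR-125b-5p, at 41.7 units on the naive and 4.41 on the severe array, was not measured on the severe array and was lower with a bound of −0.70. So was miR-221-3p, at 32.7 and 15.3 units, with a bound of −0.35. Whether these fell further than miR-126a-3p is not known. On the severe against the moderate array 2 of 10 were higher, miR-99a-5p (2.03) and miR-10a-5p (1.53), and miR-10b-5p was lower (−1.11). Among all miRNAs the share at least 2-fold apart was 35.5%. miR-125b-5p, measured on the moderate array but not on the severe, was lower too, with a bound of −1.07 on the log2 scale. miR-222-3p was detected on 0 of 4 arrays.

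On the moderate against the light array, 0 of the 14 measured platelet miRNAs and 3 of the 11 endothelial ones were at least 2-fold apart. The 3 were higher on the moderate array: miR-10a-5p (1.45), miR-10b-5p (1.13) and miR-99a-5p (1.05). The endothelial share was above the 10.2% of all miRNAs and the platelet share below it. On the severe against the light array 4 platelet miRNAs were lower, miR-103-3p (−1.82), miR-26a-5p (−1.54), miR-223-3p (−1.40) and miR-30b-5p (−1.17), and 2 endothelial ones were higher, miR-99a-5p (3.08) and miR-10a-5p (2.98). With 14 platelet and 10 endothelial miRNAs measured on both arrays, both shares were below the 51.9% of all miRNAs. The comparisons share arrays, so these values are not independent of those against the naive array. The counts depended on the scale. Without scaling, 14 platelet miRNAs were lower on the severe than on the moderate array and 15 were higher on the moderate than on the light array. The unscaled medians of all miRNAs measured on both arrays were −1.61 and 1.41 there. Most miRNAs of any kind were thus at least 2-fold apart without scaling, so these counts are not particular to the platelet list.

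**Figure D4:**
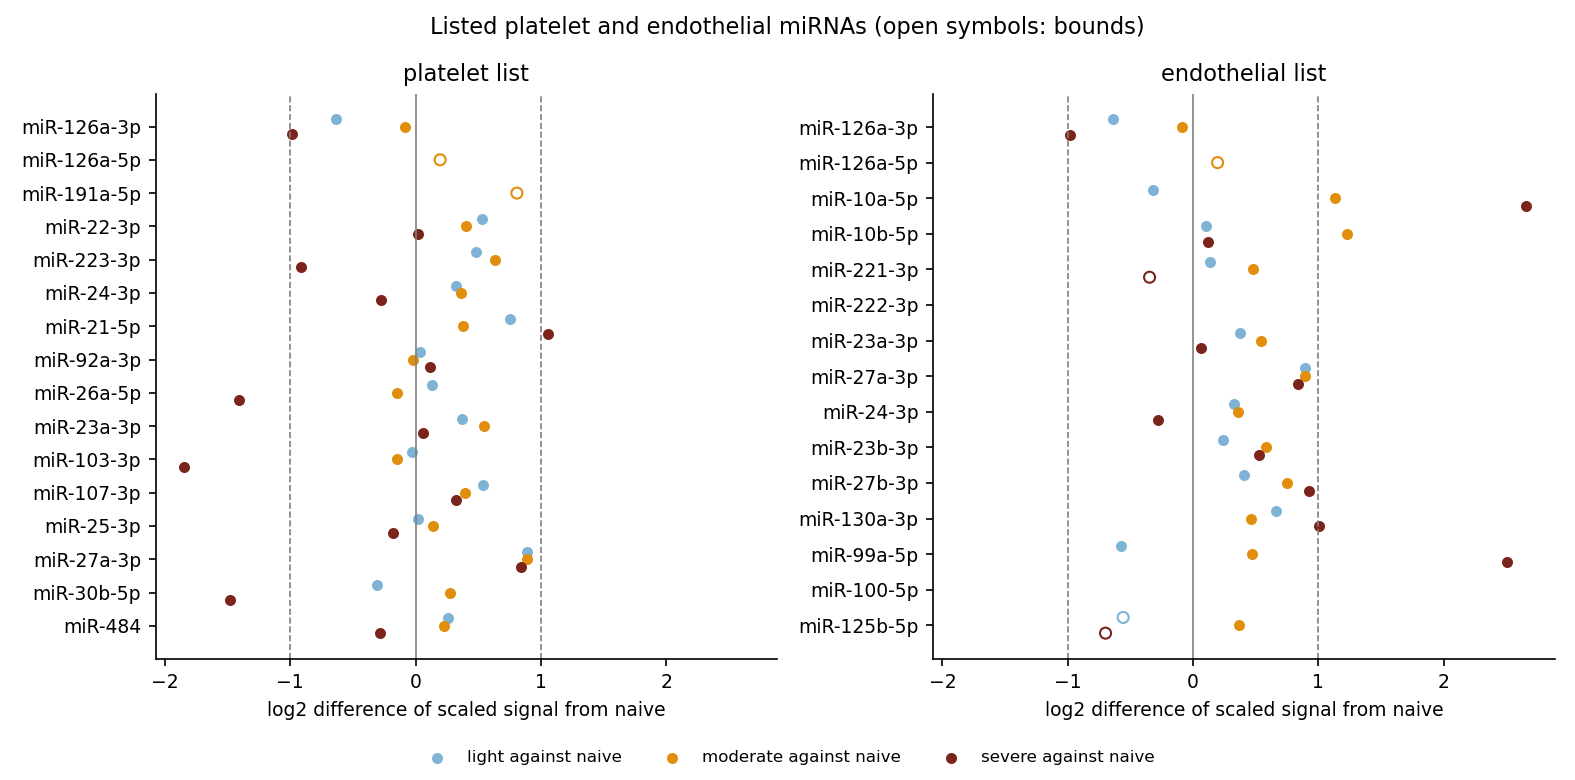
Log2 difference of the scaled signal from the naive array (horizontal axis) for each miRNA of the platelet list (left) and the endothelial list (right), on the light (blue), moderate (orange) and severe (dark red) arrays. Open circles are bounds (that of miR-191a-5p is no lower limit), dashed lines mark 2-fold, and a line with no symbol had no difference to give. Severe values run from −1.85 to 1.06 in the platelet list and up to 2.66 for miR-10a-5p in the endothelial list.

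Marker miRNAs of other sources moved with the groups as well. The summed scaled level of the measured platelet miRNAs was 40.6 times the 75th percentile on the naive array, 54.3 on the light, 55.1 on the moderate and 40.5 on the severe array, and that of the endothelial list was 17.3, 24.6, 25.8 and 23.3. The sums are not separate, since miR-23a-3p, miR-24-3p and miR-27a-3p, at 3702, 2955 and 2303 of the 11535 endothelial units on the naive array, are in both. The red cell list, with 4 of its 5 miRNAs on the array, 3 or 4 of them detected and the defining miR-451-5p measured on every array, summed to 52.6, 67.9, 57.8 and 41.3. That sum is mostly miR-451-5p, at 27775 units on the naive and 14052 on the severe array (−0.30), whereas miR-144-3p was at 169 and 371 (1.82) and miR-144-5p was higher with a bound of 1.97. The leukocyte list, with 6 of 6 detected on every array, summed to 12.6, 17.5, 17.6 and 6.77. That sum is mostly miR-223-3p, at 6534 of 8381 units on the naive and 2161 of 2812 on the severe array. Since miR-223-3p is in the platelet list too, the leukocyte and platelet sums are not separate either. Of its miRNAs, miR-142-3p differed between severe and naive by 0.03 and miR-223-3p by −0.91. The hepatocyte list, with 2 or 3 of 4 detected, summed to 2.21, 0.795, 1.53 and 2.42, and its defining miR-122-5p was measured on every array. On the severe array miR-122-5p was lower than naive by −0.75 and miR-192-5p higher by 1.56. The muscle list summed to 1.87, 1.18, 3.63 and 0.0948, with 3, 2, 5 and 1 of 5 detected, and its miR-499-5p and miR-206-3p were undetected on all arrays but the moderate. miR-133b-3p was at 1114 units on the naive and 39.4 on the severe array (−4.14). The smooth muscle and stroma list, with 3 of 4 detected on every array and miR-145-5p on none, summed to 0.361, 0.442, 0.895 and 0.134. On the severe array miR-143-3p was lower than naive by −1.38 and miR-199a-3p with a bound of −1.11. With the 75th percentile scale, the platelet, red cell, leukocyte, muscle and stromal sums were thus lowest on the severe array, where miR-126a-3p was lowest too. With the spike-ins as the scale, miR-126a-3p was lowest on the light array instead, and the sums were not taken with that scale. For the platelet sum the gap to the naive array was small (40.5 against 40.6). With the same percentile scale, the endothelial sum was lowest on the naive array and the hepatocyte sum on the light array. Unscaled, the endothelial sum too was lowest on the light array, at 8761 units against 11535 on the naive array. The part of these sources in the values of the 4 miRNAs was not tested.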

How the data were processed

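Serum exosome miRNA was measured on 4 arrays, 1 per group, which per the file headers lie on 1 slide of design 046066. The deposited intensity values per spot were made, per the file headers, with Agilent Feature Extraction 10.7.3.1 (9.1 per the submitters' processing notes), were background-subtracted and carry no scaling from array to array. Other deposited columns, per the file headers, are a detection call per miRNA and flags per spot. The authors' deposited value table lists 102 miRNAs as unscaled total intensity, 2 of the 4 described here among them. In the authors' deposited table miR-126a-3p stands at 48.76, 14.42, 66.44 and 14.17 in the order naive, light, moderate, severe, and miR-22-3p at 1632.52, 1231.13, 3112.67 and 1060.87. Per the labels' protocols, labelling followed a kit that amplifies cRNA, which is a procedure for messenger RNA. This was not resolved.

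Outlier spots were left out: 386 on the naive array, 387 on the light, 386 on the moderate and 525 on the severe array. There were 0 saturated spots. Spots of a probe were averaged and probes of a miRNA summed. The scale was each array's 75th percentile among the 111 miRNAs called present on all 4, and log2 was taken after division by it (Python 3.11.15, numpy 2.4.6, pandas 2.3.3). Calling meant at least 2-fold. The plan gave bounds to undetected miRNAs only. Here detected levels under the floor, those of miR-126a-5p and miR-191a-5p on the naive array, were also treated as not measured, as in earlier processing of these data. The floor belongs to a single probe and the level is a sum, so bounds are not strict. The 4 miRNAs and the lists were chosen with earlier results of these data known. Other miRNAs were named where they had 1 of the 3 closest profiles, were platelet or endothelial miRNAs at least 2-fold apart, or were the first 2 of another list detected on all arrays. Exceptions are miR-223-3p in all comparisons, miR-221-3p, the partners looked up for the 4, miR-144-5p, and the listed miRNAs named as undetected, chosen after their values were seen. The calculation was tested on simulated data. Of the 14 other settings, 2 were added after seeing the data: the recentred background and leaving out probes never above 0. All settings for the lists were added then too. The normexp model (R 4.3.3, limma 3.58.1) used median spot signals and an offset of 50. The number of arrays limits the precision.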

Additional observations from a re-analysis of the deposited data

How the results depend on the processing

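No paired analysis was possible because each group held 1 array, and for the same reason no array could be left out. Scaling on the 75th percentile over all 719 miRNAs gave no value, since that percentile was negative on the light array. The number of the 4 miRNAs at least 2-fold apart was 0 in the main setting, with 2 of them measured on neither array of light against naive, severe against naive and severe against light. In the comparisons with the moderate array, the bounds of these 2 could not reach 2-fold in the main setting. The number became 1 for light against naive without scaling, with spike-ins and with the deposited value table. For moderate against naive it was 1 without scaling and 2 with spike-ins. For severe against naive it was 1 without scaling, with quantile normalization, with the 75th percentile taken without the 4 miRNAs and with the median over spots, and 2 with the total signal that the scanner software gives. For severe against moderate it was 3, 2 and 3, and for moderate against light 3, 3 and 1, without scaling, with spike-ins and with the total signal. For severe against light it was 0 in all 14 settings.

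Other counts are of the platelet list and then the endothelial list. Without scaling and with spike-ins the median of all miRNAs moved as well. It was −1.61 and −1.08 for severe against moderate, and 1.41 and 1.59 for moderate against light. For light against naive (0 and 0) they were 2 and 4 without scaling, 2 and 4 with spike-ins, 1 and 1 with the deposited table, and the endothelial count was 1 with the total signal. For moderate against naive (0 and 2) they were 4 and 6 without scaling and 8 and 11 with spike-ins. The endothelial count was 1 with median scaling, quantile normalization and the deposited table, and 0 with the brightest probe, without dim probes, with normexp and with the recentred background. For severe against naive (4 and 3) the platelet count was 2 with normexp, and the endothelial count was 5 without scaling, with the total signal and with the deposited table. Without scaling it split into 2 higher and 3 lower, against 3 and 0 in the main setting, and with quantile normalization into 2 and 1. For severe against moderate (4 and 4) they were 14 and 9 without scaling, 9 and 7 with spike-ins, and the platelet count was 7 with the total signal and 2 with normexp. The endothelial count was 2 with median scaling, quantile normalization, the deposited table, the brightest probe, no dim probes, normexp and the recentred background. It split into 2 higher and 2 lower in the main setting, 0 and 9 without scaling, and 1 and 6 with spike-ins. For moderate against light (0 and 3) they were 15 and 12 without scaling and with spike-ins, the platelet count was 1 with the total signal, and the endothelial count was 0 with normexp and 1 with the recentred background. For severe against light (4 and 2) they were 1 and 5 with spike-ins and 2 and 0 with normexp, and the 1 platelet miRNA under spike-ins was higher, where the 4 had been lower.

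The log2 change of miR-22-3p over miR-126a-3p moved with normexp to 0.064, 0.73 and −0.18 for light, moderate and severe against naive (main 1.17, 0.48 and 1.004), and to −0.91 for severe against moderate and 0.66 for moderate against light (main 0.52 and −0.68). With quantile normalization it was 0.49, 0.14 and 0.47 against naive and −0.36 for moderate against light. With the recentred background it was 0.90 and 0.69 for light and severe against naive, 0.11 for severe against moderate and −0.32 for moderate against light. With the total signal and the deposited table it was 1.35 for light against naive and −0.87 for moderate against light. Asking for at least 0.5 of the spots well above background lowered the arrays with miR-126a-5p and with miR-191a-5p from 2 to 1 each. The cause of these changes was not tested. Signal near background limits what can be said of miR-126a-5p and miR-191a-5p.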
